A study of Mus musculus with 6 samples.

Results

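Immediate early genes are genes that cells switch on within minutes of a stimulus, from transcription factors already present and without new protein synthesis. In neurons they report recent synaptic activity, and in microglia, the resident macrophages of the brain, many of the same genes also rise while tissue is cut, warmed and dissociated. Calcium, cyclic AMP and growth factor signals reach them through the MAP kinases and the factors SRF, ELK and CREB, and their own products then feed back through phosphatases, mRNA decay factors and kinase inhibitors. The 40 genes described here were listed by name for this behaviour and matched by symbol, each to 1 of the 53379 gene identifiers counted in every library. Of the 40, 39 passed the filter on low counts and were tested with the 17221 genes that passed it. The exception was Egr4, a zinc finger factor, with 20, 6 and 0 reads in wild type replicates 1, 3 and 4 and 9, 1 and 17 reads in the knockout-labelled libraries.

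The libraries were made from total RNA of cerebral cortex of mice of strain C57BL/6 at 2 months of age, 3 from wild type animals (replicates 1, 3 and 4) and 3 from animals labelled GTF2ird1-/- (replicates 5, 6 and 7). Gtf2ird1 encodes a transcription factor of the TFII-I family. The series title gives the material as isolated Gad2+ neurons; the isolation method, the type of mutation and whether a library is 1 animal are not stated in the labels, so a p-value here sets a difference against the spread among these 6 libraries alone, which may be technical. Gene counts per library lay between 13627501 and 30544144, and 3 reads, the limit that a count of 0 allows for counting error alone, corresponded to 0.0937 to 0.272 CPM (read counts divided by the TMM-normalized library size, the scale of all levels below). Gtf2ird1 was not lower in the knockout-labelled libraries, at 49.69, 40.62 and 48.76 CPM against 23.35, 31.54 and 52.68 CPM in wild type, and a count over the whole gene does not check a mutation in part of it. The 18 microglia markers summed to between 32600 and 53700 CPM per library and the 10 GABAergic neuron markers to between 234 and 1010 CPM. Every library thus held transcripts of both, with the microglia sum far above the GABAergic sum (sums over different genes, not per length). In such a mixture fewer cells of a type and less RNA per cell cannot be told apart.

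The immediate early genes differed most among the wild type libraries and little among the knockout-labelled libraries. Together the 40 genes took 0.908%, 0.453% and 0.264% of the gene counts of wild type replicates 1, 3 and 4, and 0.781%, 0.781% and 0.723% in replicates 5, 6 and 7. Their summed level was 9140, 5600 and 2490 CPM across wild type and 7030, 7800 and 6900 CPM across the knockout-labelled libraries. Wild type replicate 1 thus lay above all 3 libraries labelled knockout, and wild type replicates 3 and 4 lay below them. The ratio of the highest to the lowest library had a median over the 39 tested members of 4.58 within wild type and 1.21 within the knockout-labelled libraries. Over all genes tested the same medians were 1.625 and 1.34.

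**Figure D1:**
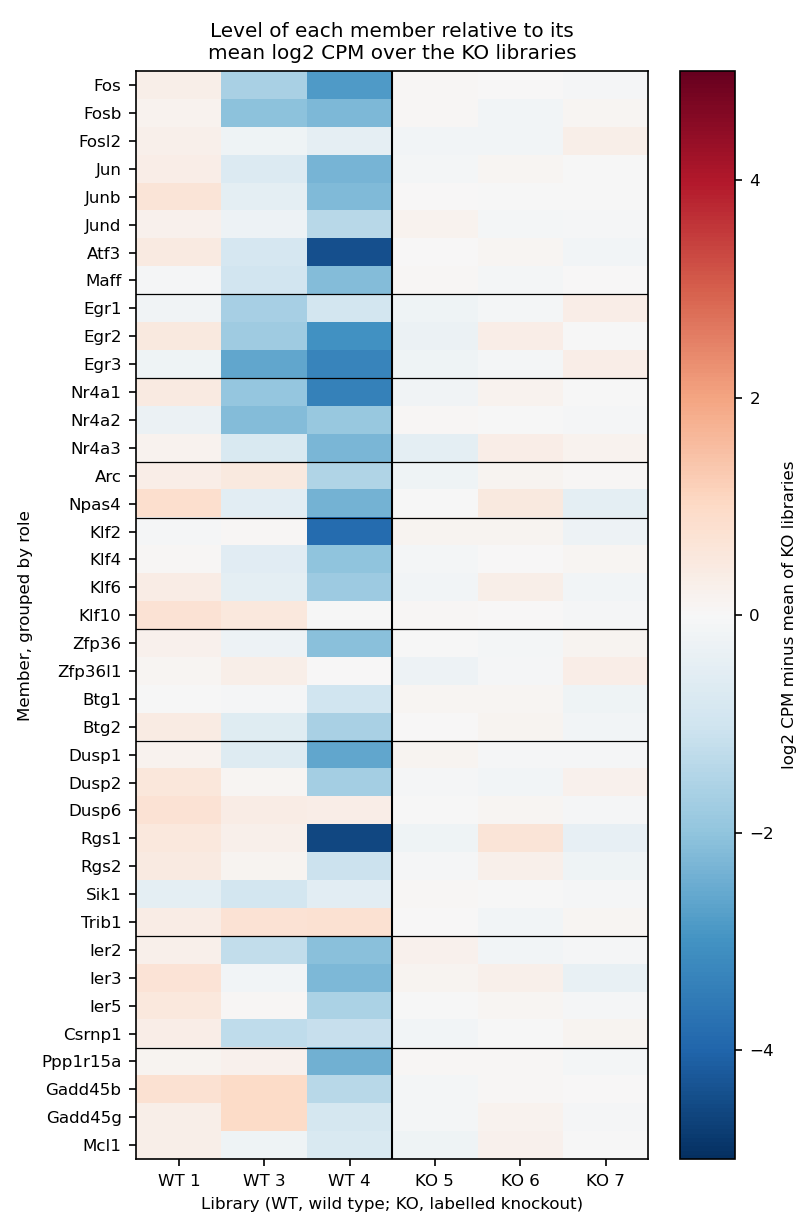
Heat map of the 39 tested members (rows, grouped by role and divided by lines) in the 6 libraries (columns); colour is log2 CPM minus the mean log2 CPM of the 3 libraries labelled knockout (KO). Wild type replicate 4 is blue in most rows and replicate 3 in many, while replicate 1 resembles the KO columns.

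Wild type replicates 1 and 4 stood at opposite ends of the order of libraries for many members. Wild type replicate 4 was the lowest of the 6 libraries for 31 of the 39 tested members, against 25.6% of all genes tested. Wild type replicate 1 was the highest for 22 of 39, against 16.4% of all genes tested. With 1 for the lowest library and 6 for the highest, the mean rank over members was 5.26, 2.95 and 1.38 for wild type replicates 1, 3 and 4 and 3.62, 4.15 and 3.64 for replicates 5, 6 and 7. Over all genes tested the mean ranks lay between 3.45 and 3.58. The members share these libraries, so the counts describe 6 libraries and are not 39 separate observations.

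**Figure D2:**
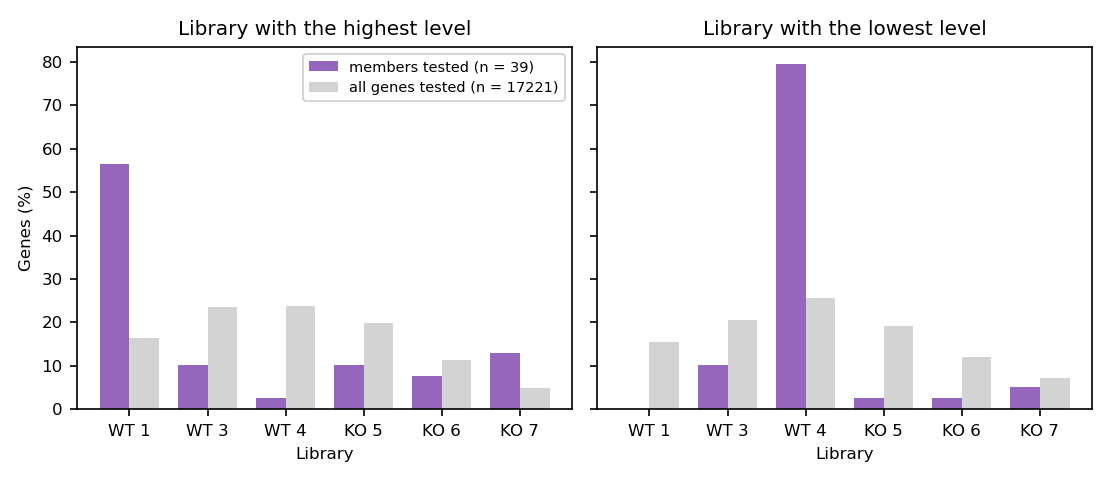
Share of genes (vertical axis, %) for which each library (horizontal axis) had the highest (left) or the lowest (right) level, for the 39 tested members and for all 17221 genes tested. Wild type replicate 1 holds the highest level of 56.4% of the members and wild type replicate 4 the lowest level of 79.5%.

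Wild type replicates 3 and 4 divided the members into 3 sets, drawn after the values were seen and described without a test. For 23 of the 39 members both replicates lay below every library labelled knockout, against 18.0% of all genes tested; this set held all 8 AP-1 and related genes, Egr1, Egr2 and Egr3, and all 3 Nr4a genes. For 12 members wild type replicate 4 alone lay below the knockout-labelled libraries, against 15.6% of all genes tested: Rgs1, Rgs2, Klf2, Ppp1r15a, Gadd45b, Gadd45g, Arc, Dusp2, Ier3, Ier5, Btg1 and Mcl1. The remaining 4, Trib1, Dusp6, Klf10 and Zfp36l1, followed neither order. With replicate 4 set aside, replicate 3 lay below every knockout-labelled library for 23 of 39 members, against 35.4% of all genes tested, and wild type replicate 1 lay above all 3 of them for 27, against 29.9%.

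**Figure D3:**
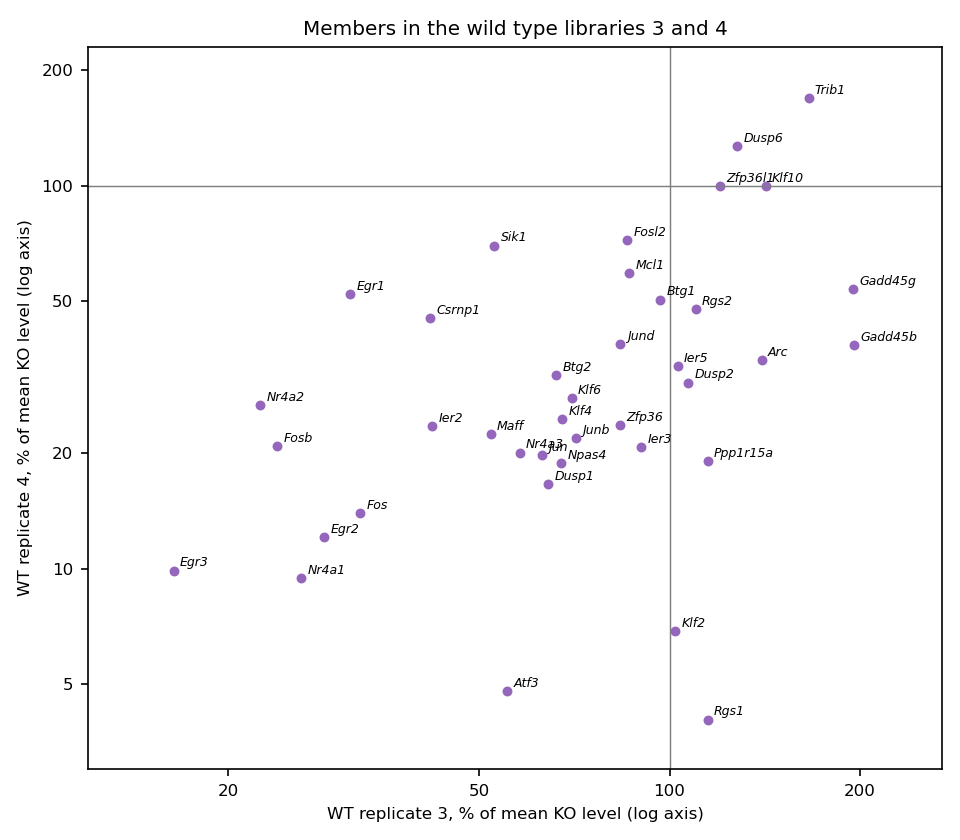
Each point is 1 tested member; axes give its level in wild type (WT) replicate 3 (horizontal) and replicate 4 (vertical) as % of its mean level in the knockout-labelled libraries (KO), both on log axes. Egr3, Nr4a1, Egr2 and Fos are low in both, at 16.4% and 9.89% for Egr3, whereas Rgs1 and Klf2 are low in replicate 4 alone, at 4.04% and 6.86%.

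Against the groups, no member passed the threshold of an adjusted p of 0.05. By the quasi-likelihood test of edgeR 0 of 39 members were called higher, against 0.00581% of all genes tested, and 0 of 39 lower, against 0%. At an unadjusted p under 0.05 there were 2 members higher (Sik1 and Nr4a2), against 4.48% of all genes tested, and 2 lower (Trib1 and Dusp6), against 2.77%. DESeq2 and limma-voom also called 0 members, where DESeq2 called 0.0813% of all genes tested higher and 0.0348% lower and limma-voom 0.00581% and 0%. The log2 fold change of the knockout-labelled libraries over wild type was positive for 32 of 39 members, with a median of 0.38 and a range from -0.63 to 1.40, and for 46.3% of all genes tested, with a median of -0.03.

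The median of the list moved with the wild type libraries in the fit and with the tool. With all 6 libraries limma-voom gave a median of 0.68, with Fos at 1.43 and Rgs1 at 1.29. Without wild type replicate 1 the median rose to 0.90, and edgeR called 8 members higher, against 1.77% of all genes tested, and 0 lower, against 0.0866%. Those 8 were Fosb, Egr3, Csrnp1, Nr4a2, Nr4a1, Egr2, Fos and Ier2, and the fit set the knockout-labelled libraries against wild type replicates 3 and 4 alone. Without wild type replicate 4 the median was 0.01 and 22 of 40 members were positive, and without each of the other 4 libraries in turn it lay between 0.30 and 0.42. The count of 40 includes Egr4, which passed the filter in that fit.

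**Figure D4:**
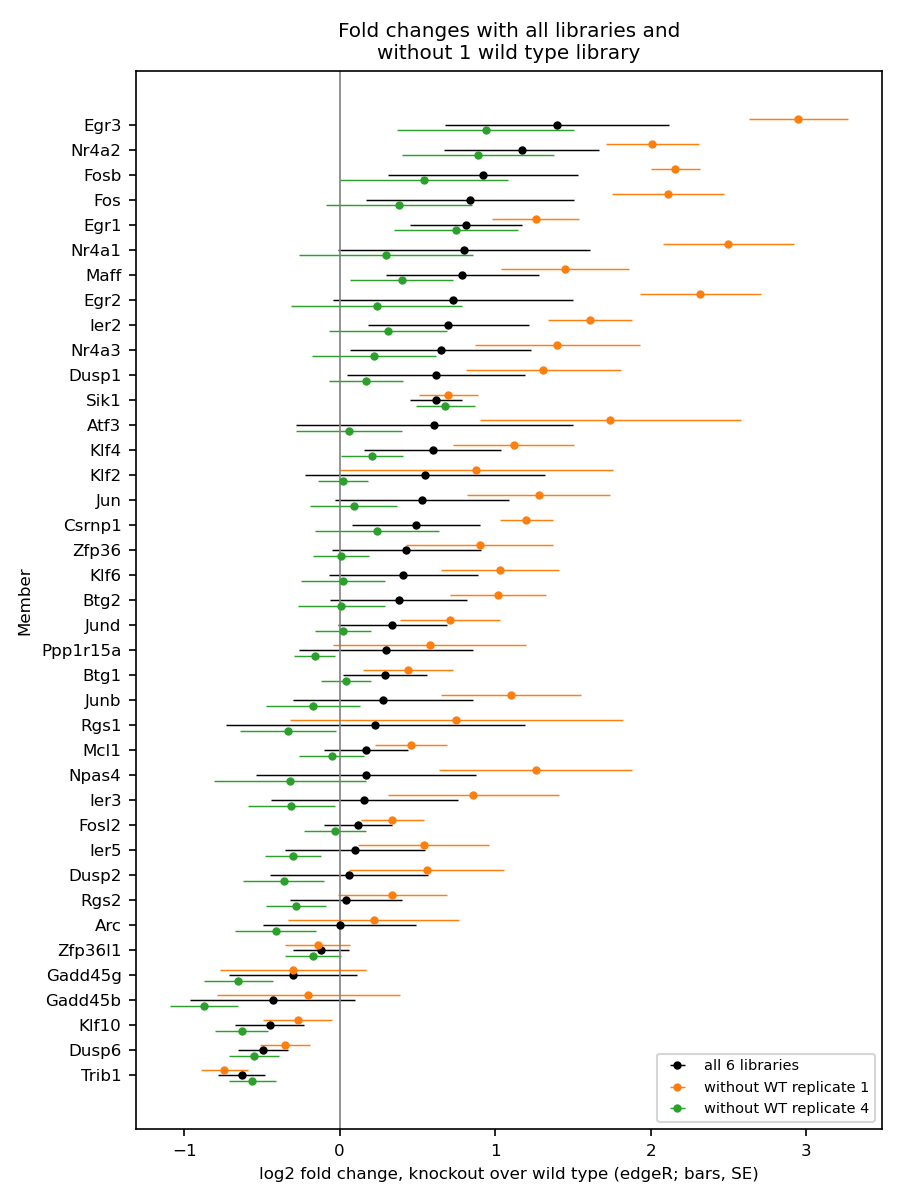
Log2 fold change (horizontal axis, libraries labelled knockout over wild type, edgeR) of the 39 members tested with all libraries (vertical axis); points are estimates and bars the SE, with all 6 libraries (black), without wild type replicate 1 (orange) and without wild type replicate 4 (green). Fosb is at 0.92 with all libraries and 2.16 without wild type replicate 1, while Trib1 stays between -0.74 and -0.56.

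Other transcripts differed between the same libraries. The 12 astrocyte markers summed to 3640, 624 and 289 CPM across wild type replicates 1, 3 and 4 and 3560 to 6400 CPM across the knockout-labelled libraries, and the 10 oligodendrocyte markers to 2420, 552 and 168 CPM against 2020 to 2450 CPM. All 12 and all 10 had positive log2 fold changes, with medians of 1.8 and 1.4, and none passed. Without overlap, 8 of the 12 and 2 of the 10 lay higher in the knockout-labelled libraries, against 6.34% of all genes tested. All 12 and all 10 were detected in every library. The 18 microglia markers, also all detected, summed to 53700, 51600 and 32600 CPM across wild type and 34200 to 42900 CPM across the knockout-labelled libraries. The 8 oligodendrocyte precursor markers summed to 479, 65.3 and 181 CPM across wild type and 553 to 978 CPM across the knockout-labelled libraries, the 11 endothelial and mural markers to 167, 106 and 65.7 CPM and 157 to 232 CPM, and the 8 border macrophage markers to 1100, 328 and 417 CPM and 676 to 802 CPM. The 8 glutamatergic neuron markers summed to 107, 30.1 and 27.4 CPM across wild type and 63 to 98.3 CPM across the knockout-labelled libraries. That sum was lowest in wild type replicate 4, but of the 8 markers only 3 were lowest there. Slc17a6 and Tbr1 were highest in that library, at 6.906 and 7.819 CPM. The 10 markers shared by neurons summed to 364, 243 and 709 CPM and 483 to 888 CPM. In wild type replicate 4 Map2 and Tubb3 were the highest of the 10, at 384.8 and 205.1 CPM, while 4 of the 10 were lowest there. The median level of the 10 was 17.7, 7.97 and 7.9 CPM across wild type and 15.5 to 17.6 CPM across the knockout-labelled libraries. The sum of the GABAergic markers had the same order of libraries as the neuron sum. It was 332, 234 and 779 CPM across wild type and 547 to 1010 CPM across the knockout-labelled libraries. Both orders differed from that of the summed members. The list of 10 blood cell and other leukocyte markers summed to 33.1 to 107 CPM across wild type and 60.8 to 90.6 CPM across the knockout-labelled libraries. Only 3 of the 10 were detected in every library and 3 had no reads in any. The haemoglobin genes Hbb-bs and Hba-a1 were the highest of the list in every library. Hbb-bs was at 21.12 to 76.48 CPM across wild type and 40.23 to 72.67 CPM across the knockout-labelled libraries. Reads that the counting assigned to no feature made up 39.95%, 57.6% and 58.2% of reads of wild type replicates 1, 3 and 4 and 46.8% to 51.2% in the knockout-labelled libraries. Ribosomal RNA genes made up 18.6% of wild type replicate 3, 6.77% in replicate 6 and 0.867% to 4.06% in the other 4 libraries. The part of these differences in the order of the immediate early genes was not tested. With the summed microglia markers as library size in place of TMM, wild type replicate 4 was still the lowest for 28 of 39 members, against 7.95% of all genes tested, and wild type replicate 1 was the highest for 2, against 1.13%.

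Upstream sequence was available from RefSeq (GRCm38.p6) for 32 of the 40 members, and not for Egr1, Egr3, Arc, Ier2, Klf10, Rgs1, Sik1 and Trib1. The window searched was the 250 bases before the RefSeq start nearest to the 5′ end of the GENCODE gene, on both strands. The CRE core TGACG, bound by CREB and related factors, was present in 17 of 32 windows (53.1%) and in 19.6% of the 20594 windows of the same length; the full CRE, TGACGTCA, which contains 2 CRE cores, was present in 3 of 32 and in 1.91%. The EGR site GCGNGGGCG was present in 11 of 32 (34.4%) and in 5.67%, and the SP site GGGCGG, which can overlap it, in 71.9% and 39.4%. The AP-1 site TGANTCA was present in 1 of 32 and in 6.44%, the CArG box of SRF in 1 of 32 (Zfp36) and in 1.34%, the TATA box TATAAA in 6 of 32 and in 12.2%, and the ETS core GGAA in 90.6% and 93.5%. A match is a run of letters and not a shown binding site, and sequence further upstream was not searched.

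The windows of 4 members are printed 5′ to 3′ on the strand of the gene, as examples of members with CRE cores (Fos, Fosb and Nr4a1) and without (Dusp6). Capitals mark the CRE core, the EGR site and the TATA box, read on either strand, so that a CRE core on the other strand appears as CGTCA. They lie at chr12:85473640-85473889 (Fos, plus strand), chr7:19310046-19310295 (Fosb, minus strand), chr15:101266596-101266845 (Nr4a1, plus strand) and chr10:99262981-99263230 (Dusp6, plus strand).
Fos: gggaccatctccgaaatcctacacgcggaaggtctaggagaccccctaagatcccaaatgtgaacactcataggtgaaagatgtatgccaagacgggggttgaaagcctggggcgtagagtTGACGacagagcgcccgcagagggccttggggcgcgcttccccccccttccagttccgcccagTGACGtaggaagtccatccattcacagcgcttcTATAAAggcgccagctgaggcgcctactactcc
Fosb: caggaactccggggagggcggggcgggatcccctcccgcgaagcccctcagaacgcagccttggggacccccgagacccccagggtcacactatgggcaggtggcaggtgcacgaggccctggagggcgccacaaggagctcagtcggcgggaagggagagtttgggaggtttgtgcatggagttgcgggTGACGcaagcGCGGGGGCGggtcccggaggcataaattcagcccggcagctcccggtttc
Nr4a1: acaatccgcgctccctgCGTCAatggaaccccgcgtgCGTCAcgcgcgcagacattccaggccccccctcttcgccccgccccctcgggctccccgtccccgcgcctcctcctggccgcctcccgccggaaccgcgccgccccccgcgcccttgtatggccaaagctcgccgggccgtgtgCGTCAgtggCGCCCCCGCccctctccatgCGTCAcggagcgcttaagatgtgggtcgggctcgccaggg
Dusp6: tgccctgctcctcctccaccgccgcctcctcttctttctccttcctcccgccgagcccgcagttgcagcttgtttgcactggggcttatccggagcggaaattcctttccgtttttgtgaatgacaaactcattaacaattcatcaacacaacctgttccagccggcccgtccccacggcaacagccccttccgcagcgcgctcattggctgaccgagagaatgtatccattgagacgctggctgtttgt
The RefSeq start of Nr4a1 lies 12577 bases from the 5′ end of the GENCODE gene. The Fos window has CRE cores that begin 129 and 66 bases before the start and a TATA box 33 bases before it. Nr4a1 has 4 CRE cores and an EGR site, Fosb has 1 of each, and the Dusp6 window holds none of the letters searched for in capitals. The CRE core was present in some and absent from other windows of each set of members. Of the members low in both wild type replicates 3 and 4, 12 of 19 with a window held it and 7 did not (Egr2, Fosl2, Jun, Jund, Klf6, Maff and Zfp36), and of the other tested members 4 of 12 held it (Btg1, Klf2, Ppp1r15a and Rgs2).

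The AP-1 factors pair through leucine zippers and bind DNA as dimers of FOS and JUN proteins. Jun had the highest level per kilobase of exon of the 40 genes, at a mean of 266.2 CPM per kilobase, followed by Junb at 171.1 and Fos at 170.7 on the same scale, and Npas4 and Egr4 had the lowest, at 0.545 and 0.169. Jun (chromosome 4, 95049034 to 95052222, minus strand, GRCm38) was at 1254, 629.6 and 198.4 CPM across wild type replicates 1, 3 and 4 and 945.3, 1086 and 980.1 CPM across replicates 5, 6 and 7. The wild type range of Jun enclosed all 3 libraries labelled knockout, and the log2 fold change was 0.53 ± 0.56 (SE) with an edgeR adjusted p of 0.768. Fos (chromosome 12, 85473890 to 85477273, plus strand) was at 624.7, 166.9 and 72.37 CPM and 539.5, 517.6 and 488.5 CPM. Its means were 288 ± 295 and 515 ± 25.6 CPM (SD, n = 3 each). The fitted log2 difference was 0.84 ± 0.67 (SE) with an edgeR adjusted p of 0.712, which became 2.11 ± 0.36 (SE; edgeR adjusted p = 0.0448) without wild type replicate 1.

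Fosb, a FOS relative whose truncated form accumulates in neurons after repeated activity, was at 177.4, 37.34 and 32.64 CPM across wild type and 162.6, 141.3 and 165.5 CPM across the knockout-labelled libraries. Its wild type replicates 3 and 4 were close to each other and both far below the other 4 libraries. With all 6 libraries the log2 fold change of Fosb was 0.92 ± 0.61 (SE) with an edgeR adjusted p of 0.673. Without wild type replicate 1 it was 2.16 ± 0.16 (SE) with an edgeR adjusted p of 0.0153. In the fit without wild type replicate 4 edgeR did not call Fosb. Junb was at 666.3, 307 and 94.4 CPM and 442, 431.4 and 421.7 CPM, with groups that overlapped (log2 fold change 0.28 ± 0.58, SE; edgeR adjusted p = 0.887). Without wild type replicate 4 the sign of Junb turned, to -0.17. Atf3, a stress-induced factor of the same zipper class, had the widest range of the AP-1 set, at 502.6, 203.2 and 17.58 CPM across wild type and 369.1, 394.9 and 337.7 CPM across the knockout-labelled libraries. Wild type replicate 4 was 28.6 times below replicate 1 for Atf3, where the knockout-labelled libraries differed by 1.17 times.

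**Figure D5:**
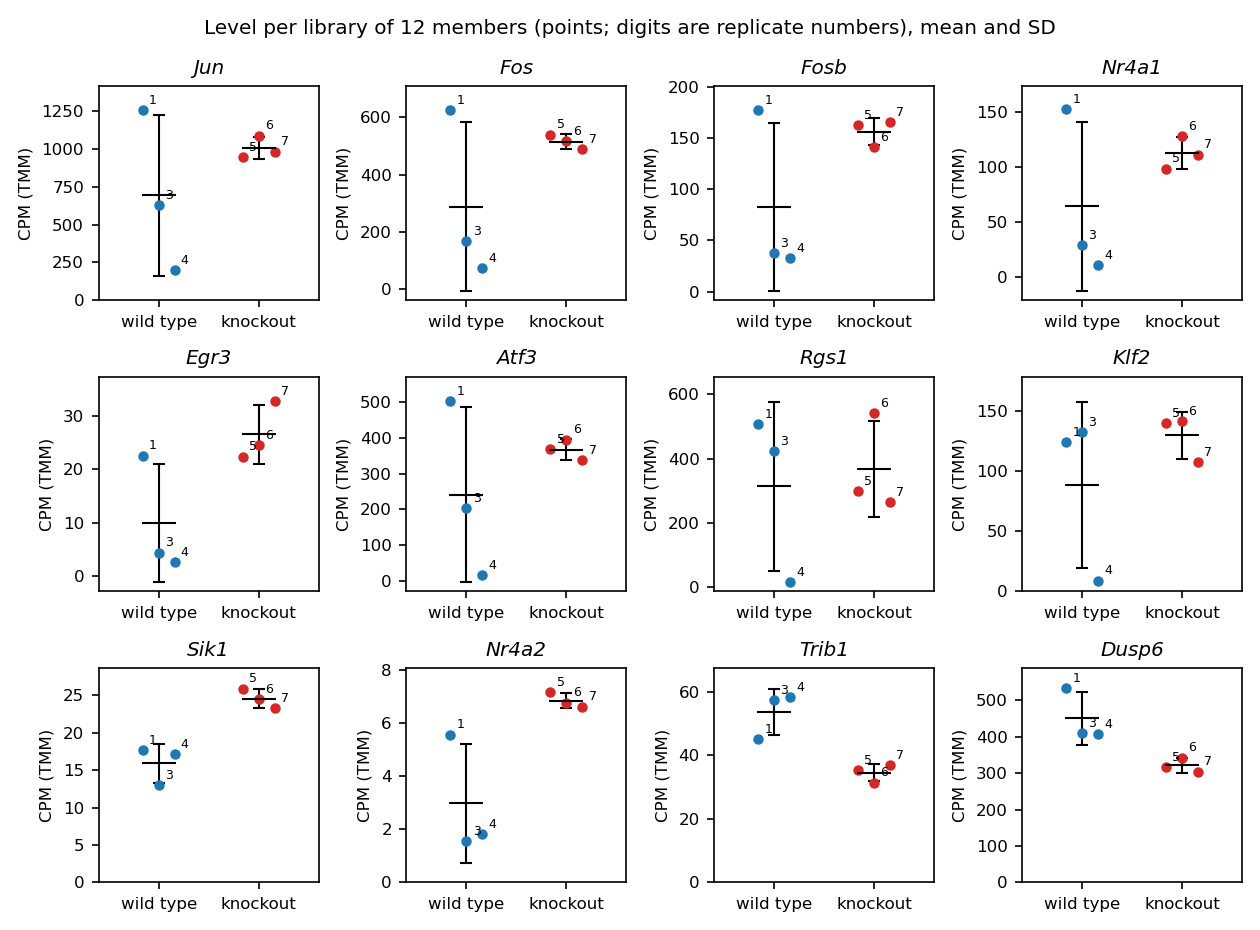
Level in CPM (vertical axes) of 12 members in the wild type libraries and the knockout-labelled libraries; points are libraries with their replicate numbers, horizontal bars are means and error bars SD (n = 3 each), which reach below 0 where the SD exceeds the mean. For Jun to Klf2 the wild type points spread from near or above the other group down to replicate 4; for Sik1, Nr4a2, Trib1 and Dusp6 the groups do not overlap.

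Maff, a small MAF protein with no activation domain, was at 6.403, 3.444 and 1.484 CPM across wild type and 6.881, 6.231 and 6.716 CPM across the knockout-labelled libraries (log2 fold change 0.79 ± 0.49, SE; edgeR adjusted p = 0.661). Jund ranged from 99.08 to 293.6 CPM across wild type and from 240.6 to 286.1 CPM across the knockout-labelled libraries. On the opposite strand the antisense gene Gm11175 overlaps 52.6% of the exon length of Jund; whether the counting used strand is not given, and Gm11175 itself had 19 to 62 reads per library against 1736 to 8439 for Jund. Fosl2, a FOS relative, varied least of the 8, from 28.59 to 46.7 CPM across wild type and 35.41 to 47.64 CPM across the knockout-labelled libraries. The antisense gene Junos overlaps 7.3% of the exon length of Jun, and Prdx2, a protein-coding gene on the opposite strand, 7.5% of that of Junb. None of the 8 passed, and all 8 had positive fold changes, from 0.12 to 0.92.

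The EGR genes encode zinc finger factors that bind a GC-rich site and are restrained by the NAB corepressors. Egr1, the most abundant of the 4, was at 154.4, 55.01 and 91.83 CPM across wild type and 149.3, 161.6 and 218.1 CPM across the knockout-labelled libraries. Here wild type replicate 3 and not replicate 4 was the lowest, and replicate 1 lay above replicate 5, so the groups overlapped (log2 fold change 0.81 ± 0.36, SE; edgeR adjusted p = 0.637). Egr3 was at 22.55, 4.35 and 2.625 CPM and 22.36, 24.5 and 32.8 CPM. It had the largest fold change of the members, 1.40 ± 0.72 (SE; edgeR adjusted p = 0.637), and only wild type replicate 1 reached the level of replicate 5. Without that replicate it was 2.95 ± 0.32 (SE; edgeR adjusted p = 0.0243), and without wild type replicate 4 it was 0.94 ± 0.57 (SE; edgeR adjusted p = 0.425). Egr2, a gene also known from Schwann cell myelination, was at 84.52, 17.31 and 7.362 CPM across wild type and 48.67, 75.13 and 59.13 CPM across the knockout-labelled libraries, so that wild type held both the highest and the lowest values.

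The NR4A genes encode orphan nuclear receptors that act without a known natural ligand. Nr4a1 was at 152.7, 29.45 and 10.67 CPM across wild type and 98.71, 128.3 and 111.4 CPM across the knockout-labelled libraries. Its wild type replicate 1 was the highest library, and replicate 4 was 14.3 times lower. With all 6 libraries the log2 fold change of Nr4a1 was 0.80 ± 0.81 (SE) with an edgeR adjusted p of 0.759. Without wild type replicate 1 it was 2.5 ± 0.42 (SE) with an edgeR adjusted p of 0.0435. In the fit without wild type replicate 4 edgeR did not call Nr4a1. Nr4a2 (chromosome 2, 57106830 to 57124003, minus strand), also a marker of dopamine neurons, was at 5.567, 1.541 and 1.826 CPM across wild type and 7.154, 6.77 and 6.622 CPM across the knockout-labelled libraries. Its groups did not overlap, as for 6.34% of all genes tested with the knockout-labelled libraries above, and the log2 fold change was 1.17 ± 0.50 (SE) with an edgeR adjusted p of 0.637. Nr4a3 ranged from 0.913 to 4.976 CPM across wild type and from 3.128 to 5.512 CPM across the knockout-labelled libraries.

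Arc and Npas4 are induced almost only in neurons, by synaptic activity and calcium entry, and both were low. Arc, which encodes a capsid-like protein of the synapse, was at 6.403, 7.068 and 1.769 CPM across wild type and 4.339, 5.572 and 5.248 CPM across the knockout-labelled libraries. Npas4, a neuronal transcription factor, was at 4.176, 1.631 and 0.457 CPM and 2.307, 3.295 and 1.656 CPM. For both genes wild type replicate 4 was the lowest library. That library also held the lowest sum of glutamatergic markers, 27.4 CPM, although only 3 of those 8 markers were lowest there. It held the second highest sum of GABAergic markers, 779 CPM, and the part of either sum in these levels was not tested. The groups overlapped (log2 fold changes 0.00 and 0.17). Among 14 genes of the later neuronal response 11 were tested and 0 passed, with 10 positive and a median of 0.36. The 3 with the smallest p were Lmo4, at 30.02 to 35.91 CPM across wild type and 35.33 to 38.12 CPM across the knockout-labelled libraries, Homer1, at 34.8 to 41.89 and 39.39 to 43.75 CPM, and Rasgrp1, at 0.799 to 10.51 and 9.346 to 9.656 CPM.

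The KLF genes encode zinc finger factors of vascular and myeloid cells. Klf2, which is also induced by blood flow in endothelium, was at 124.4, 132.5 and 8.903 CPM across wild type and 140.2, 141.7 and 107.4 CPM across the knockout-labelled libraries. Wild type replicate 4 was 14.9 times below replicate 3, and the other 5 libraries lay together. Klf4 and Klf6 were lower in both wild type replicates 3 and 4, at 43.59 and 15.87 CPM for Klf4 and 231.1 and 92.17 CPM for Klf6, against lowest values of 59.35 and 293.5 CPM across the knockout-labelled libraries. Klf10, a gene induced by TGF-beta, went the other way, at 23.31, 19.94 and 13.98 CPM across wild type and 14.43, 14.02 and 13.56 CPM across the knockout-labelled libraries. Its groups overlapped through wild type replicate 4 (log2 fold change -0.45 ± 0.22, SE; edgeR adjusted p = 0.637).

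Zfp36 and Zfp36l1 encode proteins that bind AU-rich elements and hasten mRNA decay, and Btg1 and Btg2 encode antiproliferative adaptors of the deadenylase complex. Zfp36 was at 340.9, 246.3 and 70.08 CPM across wild type and 290.7, 274.2 and 321.5 CPM across the knockout-labelled libraries. Zfp36l1 did not share that order, at 160.8, 182.7 and 152.2 CPM and 125.5, 144.1 and 187.5 CPM. The noncoding gene Gm26669 overlaps 55.9% of its exon length on the opposite strand and had 13 to 30 reads per library, against 2016 to 6003 for Zfp36l1. Btg1 was at 401.7, 394.8 and 206.2 CPM across wild type and 438.1, 437.4 and 350.9 CPM across the knockout-labelled libraries (log2 fold change 0.29 ± 0.27, SE; edgeR adjusted p = 0.74). Btg2, a p53 target, was at 392.4, 196.5 and 95.42 CPM and 301.1, 321.3 and 268.3 CPM.

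Genes of signalling feedback held the clearest exceptions to the common order. Trib1 (chromosome 15, 59648350 to 59657099, plus strand), a pseudokinase that directs C/EBP proteins to degradation, was at 45.2, 57.36 and 58.44 CPM across wild type and 35.42, 31.45 and 36.83 CPM across the knockout-labelled libraries. Its groups did not overlap, as for 6.68% of all genes tested with the knockout-labelled libraries below, and wild type replicate 4 was the highest library (log2 fold change -0.63 ± 0.15, SE; edgeR adjusted p = 0.637). Dusp6 (chromosome 10, 99263231 to 99267489, plus strand), a phosphatase specific for ERK, was at 533.9, 410.7 and 406.9 CPM across wild type and 316.8, 343.1 and 304.2 CPM across the knockout-labelled libraries, also without overlap (log2 fold change -0.49 ± 0.16, SE; edgeR adjusted p = 0.637). Sik1, a salt-inducible kinase that holds CREB coactivators in the cytoplasm, was at 17.68, 12.96 and 17.12 CPM and 25.88, 24.44 and 23.33 CPM, higher without overlap (log2 fold change 0.62 ± 0.17, SE; edgeR adjusted p = 0.637). In all, of 39 members 2 lay above without overlap (Sik1 and Nr4a2), against 6.34% of all genes tested. Below without overlap lay 2 (Trib1 and Dusp6), against 6.68%. With DESeq2 size factors 3 members lay above, against 6.54% of all genes tested, and 2 below, against 6.2%. With total gene counts as library size 4 lay above, against 7.97%, and 1 below, against 2.69%. With microglia markers as library size 16 lay above, against 11.7%, and 0 below, against 0.691%.

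The other feedback genes spread within wild type. Rgs1, a brake on G protein signalling in leukocytes, was at 506.3, 422.4 and 14.9 CPM across wild type and 299.4, 540.7 and 265 CPM across the knockout-labelled libraries, a 34.0-fold range within wild type and the widest of the tested members (log2 fold change 0.23 ± 0.96, SE; edgeR adjusted p = 0.947). Wild type replicate 4 alone stood apart for Rgs1. Rgs2, its relative, was at 572.7, 469.3 and 202.8 CPM and 404.3, 508.2 and 368 CPM (log2 fold change 0.04 ± 0.36, SE; edgeR adjusted p = 0.975). Dusp1, a phosphatase of p38 and JNK, was at 220.4, 124.1 and 32.13 CPM across wild type and 211.1, 182.6 and 185.7 CPM across the knockout-labelled libraries, and Dusp2, of the same family, lay between 2.169 and 10.54 CPM in all 6 libraries.

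The IER genes and Csrnp1 are genes of early induction. Ier2 was at 63.71, 22.75 and 12.73 CPM across wild type and 61.61, 49.43 and 50.89 CPM across the knockout-labelled libraries, and Csrnp1 at 48.54, 16.13 and 17.41 CPM and 34.83, 38.16 and 42.73 CPM. With all 6 libraries edgeR called neither Ier2 nor Csrnp1, with adjusted p of 0.695 and 0.724. Both were called higher by edgeR in the fit without wild type replicate 1, with adjusted p of 0.0448 and 0.0371. Neither was called in the fit without wild type replicate 4. The span of Csrnp1 overlaps that of Cx3cr1, a microglial gene on the same strand, with 0 shared exon bases. Ier3 and Ier5 were low in wild type replicate 4 alone, at 8.275 CPM against 30.14 CPM or more elsewhere and at 105.3 CPM against 295.9 CPM or more.

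Among stress and survival genes the lowest library was wild type replicate 4 throughout. Ppp1r15a, which encodes the GADD34 subunit that restores translation after stress, was at 82.36, 86.91 and 14.38 CPM across wild type and 78.42, 78.43 and 69.63 CPM across the knockout-labelled libraries. Gadd45b and Gadd45g, activators of stress kinases, were highest in wild type replicate 3, at 11.96 and 40.6 CPM, against 5.747 to 6.351 and 19.35 to 23.37 CPM across the knockout-labelled libraries. Mcl1, a short-lived antiapoptotic BCL2 relative, was at 555.9, 395.9 and 271.3 CPM across wild type and 392.6, 530.2 and 451.2 CPM (log2 fold change 0.17 ± 0.27, SE; edgeR adjusted p = 0.854).

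Other genes of the response, taken from lists that do not hold the members, were read from the same fit, and none of them passed. Of 18 genes that microglia induce during isolation all were tested and 13 were positive (median 0.38). Of the 18, 15 were lowest in wild type replicate 4, the exceptions being Rel, Icam1 and Gpr84, and 16 were highest in wild type replicate 1. Ccl3, a chemokine chosen after its values were seen, was at 196.3, 44.95 and 3.196 CPM across wild type and 115.2, 135.2 and 112.5 CPM across the knockout-labelled libraries. The 3 with the smallest p were Gpr84, a fatty acid receptor, with 47.6 to 74.58 CPM across wild type and 29.36 to 39.2 CPM across the knockout-labelled libraries, Nfkbiz, with 35.95 to 140.9 and 89.24 to 131.1 CPM, and Icam1, with 115.6 to 175.6 and 113.4 to 140.6 CPM.

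Most of the genes that lie upstream of the members did not share their order. All 28 kinases, SRF and CREB family factors and coactivators were tested, 10 were positive (median -0.14), and 4 were lowest in wild type replicate 4. The 3 with the smallest p were lower in every library labelled knockout than in every wild type library, as were 6.68% of all genes tested. Rps6ka1, an ERK-activated kinase, was at 470.3 to 592 CPM across wild type and 311.4 to 432.4 CPM across the knockout-labelled libraries, Elk3, a partner of SRF, at 113.3 to 137.7 and 78.81 to 105.5 CPM, and Rps6ka3, a relative of Rps6ka1, at 102 to 117.3 and 72.79 to 98.62 CPM. For each the edgeR adjusted p was 0.637.

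Of 29 other early response genes 28 were tested, 18 were positive (median 0.25) and 19 were lowest in wild type replicate 4. Klf9, a glucocorticoid-induced factor, was at 19, 5.981 and 5.593 CPM across wild type and 37.88, 22.17 and 27.52 CPM across the knockout-labelled libraries (log2 fold change 1.5 ± 0.49, SE; edgeR adjusted p = 0.637). Mafk, a relative of Maff, was at 15.07 to 47.53 and 54.07 to 67.57 CPM, and Nfil3, a basic leucine zipper repressor, at 10.06 to 13.98 and 15.18 to 18.69 CPM. The groups did not overlap for any of these 3 genes, picked by smallest p. Over all genes tested 6.34% lay higher in the knockout-labelled libraries without overlap.

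Heat shock genes encode chaperones that rise with unfolded protein. Of 12 tested 11 were positive (median 0.18) and 11 were lowest in wild type replicate 4, Bag3 being the exception. Their highest library was not shared with the members: the summed level was 5440, 5320 and 2550 CPM across wild type and 3970, 6610 and 4660 CPM across the knockout-labelled libraries. The 3 with the smallest p, Dnaja1, Dnajb1 and Hsph1, overlapped between groups, with Hsph1 at 187.7 to 357.5 CPM across wild type and 201.1 to 549.9 CPM across the knockout-labelled libraries.

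Of 17 corepressors and brakes on the same pathways, 16 were tested and 9 were positive (median 0.05), and 4 were lowest in wild type replicate 4. Spry1, an inhibitor of receptor tyrosine kinase signalling, was at 74.15, 45.04 and 34.81 CPM across wild type and 24.82, 23.85 and 25.9 CPM across the knockout-labelled libraries (log2 fold change -1.05 ± 0.27, SE; edgeR adjusted p = 0.637). Its relative Spry2 lay the other way, at 3.081 to 6.959 and 7.609 to 13.37 CPM, and Dusp7, an ERK phosphatase, was at 140.1 to 158 and 90.89 to 117.5 CPM. None of the 3, picked by smallest p, overlapped between groups. Over all genes tested 6.34% lay above and 6.68% below without overlap.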

How the data were processed

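The libraries were made from total RNA with a stranded total RNA kit, per the labels' protocols. The authors deposited raw read counts per gene, 1 table per library. Trim Galore 0.60, STAR 2.7 and HTSeq 1.31 with build mm10 are named in the submitters' processing notes; the strand setting of the counting is not stated there. Rows that name no gene were left out of library sizes. Of 53379 gene identifiers 53274 matched GENCODE M21, which gave symbols, positions and exon lengths.

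Counts were analysed in R 4.3.3 with edgeR 4.0.16 (TMM, filterByExpr by group, robust quasi-likelihood test, two-sided), with Benjamini-Hochberg adjustment over all 17221 genes tested and a threshold of 0.05; SE is that of the log2 fold change. The code was tested on simulated data. DESeq2 1.42.0, limma 3.58.1 and sva 3.50.0 gave alternatives, as did other library sizes, filters of low counts (none, or at least 1 CPM in 3 libraries), protein-coding genes alone and leaving out each library. Levels per kilobase used the total length of merged exons. No pair of libraries within a group agreed within sampling noise.

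The members and the lists were chosen with earlier results of these data known. Full statistics are given for the 8 members with the highest CPM and the 8 with the smallest p, and levels for others; in each related list the 3 genes with the smallest p are named.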

Additional observations from a re-analysis of the deposited data

How the results depend on the processing

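No paired analysis was possible because the groups share no replicate number. Over all genes, 1 was called higher and 0 lower by edgeR at an adjusted p under 0.05; the count higher was 2 with microglia marker counts as library size, 14 with DESeq2, 4 with no filter, 0 with protein-coding genes alone and 2 with 1 surrogate variable, and the count lower was 6 with DESeq2 and 1 with no filter. Leaving out 1 library at a time gave 1 to 306 genes higher and 0 to 15 lower, the highest of both without wild type replicate 1, and 0 to 8 members higher. The member median then lay between 0.01 and 0.90. With 1 surrogate variable 21 of 39 members were positive (median 0.01), and the log2 fold change turned to -0.14 for Junb, -0.61 for Rgs1, -0.3 for Rgs2 and -0.08 for Mcl1. It also turned without wild type replicate 4, to -0.17 for Junb, -0.33 for Rgs1, -0.28 for Rgs2 and -0.05 for Mcl1, and without replicate 6, to -0.15 for Rgs1 and -0.1 for Rgs2. Leaving out 1 library at a time, the highest values, all without wild type replicate 1, were 1.1 for Junb, 0.75 for Rgs1, 0.34 for Rgs2 and 0.46 for Mcl1. Without wild type replicate 1, 8 members passed the threshold, all higher, against 1.77% of all genes. They were Fosb, Egr3 (2.95), Csrnp1, Nr4a2 (2.01), Nr4a1, Egr2, Fos (2.11) and Ier2. Total gene counts and microglia marker counts as library size moved the median of all genes from -0.03 to 0.11 and 0.16 and that of the members from 0.38 to 0.53 and 0.72. Members whose groups did not overlap were then 4 above (7.97% of all genes) and 1 below (2.69%), and 16 above (11.7%) and 0 below (0.691%). With limma-voom the member median was 0.68, with Fos at 1.43 and Rgs1 at 1.29. With microglia marker counts the mean rank of wild type replicate 1 was 3.54 and that of replicate 5 was 5.1, against 1.98 and 4.75 over all genes. In the 100 bases nearest to the start 0 members held the AP-1 site (2.55% of all windows), 6 the CRE core (18.8% against 12%) and 19 the ETS core (59.4% against 66.6%). The causes of these changes were not tested. The fewest reads lay behind Egr4, Npas4, Nr4a3 and Arc, down to 0 for Egr4 and 8 for Npas4 in wild type replicate 4.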
